A study of Homo sapiens with 16 samples.

Results

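The genes described here are those that govern passage through the G1 phase of the cell cycle: the D-type cyclins CCND1, CCND2 and CCND3, their kinases CDK4 and CDK6, the inhibitors CDKN1B, CDKN2A and CDKN2B, and the pocket proteins RB1 and RBL2. They were chosen by symbol, and all 10 were found among the 26485 genes of the count table. D-type cyclins bind CDK4 or CDK6 and direct them to the retinoblastoma protein RB1 and its relative RBL2 (p130), which hold E2F transcription factors in check until they are phosphorylated. CDKN2A (p16) and CDKN2B (p15) bind the monomeric kinases and keep the cyclins out, whereas CDKN1B (p27) binds cyclin-CDK complexes and is known mainly as an inhibitor of CDK2. Release of E2F switches on cyclin E and other genes of S phase entry, and loss of CDKN2A or RB1 and gain of CCND1 or CDK4 are common events in human tumors.

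RNA was sequenced from PC3 cells, a line derived from prostate cancer, and from HeyA8 cells, a line derived from ovarian cancer, both labelled wild type and each a single cell line. In each line, cells were mock treated or transfected with siNT1 (a non-targeting siRNA), siGGGGGC (an siRNA named after the 6 bases of its seed) or siCAG (an siRNA whose sequence is not given in the sources used here), and were lysed after 24 h or 48 h. Every combination of line, treatment and time gave 1 library, 16 in all. The labels give a dose of 1 nM for the siRNAs, whereas the methods of the study give 10 nM. The 24 h and 48 h libraries were the 2 replicates of a treatment, so each SD includes the change with time, and since nothing states that the libraries of different treatments came from independent experiments, p-values measured only the spread between these libraries. PC3 libraries held 27937092 to 29971612 counted reads (median 28520015) and HeyA8 libraries 29128446 to 31790209 (median 30537650).

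The cell lines matched their labels only in part. HOXB13, a homeobox gene of the prostate, lay between 24.9 and 153 RPKM in PC3 cells and at most at 0.93 RPKM in HeyA8 cells (RPKM, reads scaled for gene length and library size). PAX8, a transcription factor of the Müllerian lineage, lay between 4.32 and 16.2 RPKM in HeyA8 cells and at most at 0.39 RPKM in PC3 cells. The prostate marker KLK3 (PSA) had 0 reads in all 16 libraries. The ovarian marker MUC16 (CA125) reached at most 0.0040 RPKM in HeyA8 cells, below its highest value of 0.0146 RPKM in PC3 cells. The 4 epithelial markers were split between the mock-treated lines, and all 4 differences were called by edgeR. The cadherin CDH1 (at most 0.022 RPKM in HeyA8 cells, against 1.51 to 7.49 RPKM in PC3 cells) and EPCAM (mean of 0.641 against 8.42 RPKM in mock) were lower in HeyA8 cells. The keratins KRT8 (86.5 and 111 against 29.3 and 27.1 RPKM in the mock libraries) and KRT18 (mean of 234 against 93.3 RPKM in mock) were higher there. One pair of libraries stood apart: after siCAG in HeyA8 cells, 21.7% of 13872 genes differed more than 2-fold between 24 h and 48 h, compared with 0.706% in mock-treated, 0.916% in siNT1 and 5.66% in siGGGGGC HeyA8 cells. In PC3 cells these shares were 0.641% (mock), 2.20% (siNT1), 6.80% (siGGGGGC) and 4.44% (siCAG). Lineage markers also moved with treatment in PC3 cells: HOXB13 fell after siGGGGGC (104 and 86.2 CPM against 196 and 296 CPM after siNT1; adjusted p = 0.0233 by edgeR), as did the low level of PAX8 (adjusted p = 0.0434), and CDH1 was lower after siCAG than after siNT1 (adjusted p = 0.00656). The siNT1 level of CDH1 was itself above mock (adjusted p = 0.0417), with means of 9.79 CPM in mock, 24.9 CPM after siNT1 and 8.18 CPM after siCAG. The part of these changes in the results below was not tested.

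siGGGGGC can pair through its seed with GCCCCC, so the members were searched for this 6mer. In the longest 3′ UTR annotated per gene (GENCODE v44, hg38), searched on the transcript strand, CCND2 held 3 matches, CDK6 held 2, and CCND3 and CDKN2A held 1 each, whereas CCND1, CDK4, CDKN1B, CDKN2B, RB1 and RBL2 held 0. In the coding sequence of the same transcripts RB1 and RBL2 held 2 matches each and CCND3 and CDKN1B 1 each, and the 6 other members held 0. Of 18030 genes, the 3′ UTR held GCCCCC in 30% and 2 or more copies in 12.9%, and the coding sequence held it in 39.6%. Of the 7 matches in the 3′ UTRs 5 are shown, with 12 bases on either side, because they are sites within these transcripts to which the seed of siGGGGGC could pair. The capitals mark the 6mer, the sequences are those of the reference genome, read 5′ to 3′ on the strand of the gene, and the coordinates are those of the printed stretch.
CCND2 site, chr12:4300107-4300136 (+): aaaaaaaattctGCCCCCacctagatcata
CCND3 site, chr6:41935610-41935639 (-): ttccttttgaacGCCCCCccccacccctgg
CDK6 site 1, chr7:92611889-92611918 (-): ggggccatttcaGCCCCCtgtattctcatg
CDK6 site 2, chr7:92607529-92607558 (-): aaattagactaaGCCCCCaaataagctgca
CDKN2A site, chr9:21968136-21968165 (-): agggccacaactGCCCCCgccacaacccac

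The printed site of CCND2 and site 2 of CDK6 are followed by an A, the base that extends a 6mer match to the 7mer-A1 form. In the antisense strand given by the paper, the base after the seed is an A, which could pair with a T just before the match. The printed sites of CCND2 and CDKN2A have this T, so the CCND2 site has both added bases. A match is a description of the sequence and does not show that the site was bound. For siCAG, no member held a run of 4 or more CTG in the coding sequence or 3′ UTR, as did 2.79% of genes.

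In mock-treated cells the order of expression in RPKM was similar at the top and differed further down. It rests on the deposited gene lengths, and that of CDKN2B (7845 bases) exceeds the span of its coordinates (chr9:22002903-22009313). In CPM, which takes no account of length, CCND1 and CDK4 also had the highest means in both lines. CCND3 and CDK6 (56.4 and 46.9 CPM) then stood above CDKN1B (19.7 CPM) in PC3 cells. In HeyA8 cells CDK6 (247 CPM) stood above RB1 (167 CPM). The order below CDK4 thus depends on these lengths. CCND1 was the most abundant member in both lines, with 224 ± 23.2 RPKM in PC3 and 279 ± 51.2 RPKM in HeyA8 cells (mean ± SD, n = 2), followed by CDK4 with 82.5 ± 5.37 and 141 ± 9.40 RPKM. RB1 came next, with 13.0 ± 0.767 RPKM in PC3 and 38.3 ± 5.29 RPKM in HeyA8 cells. In PC3 cells RBL2 (9.66 ± 0.916 RPKM) and CDKN1B (6.93 ± 0.051 RPKM) followed, and then CCND3 (4.0 ± 0.086 RPKM), CDKN2A (3.46 ± 1.44 RPKM), CDKN2B (1.95 ± 0.844 RPKM) and CDK6 (1.79 ± 0.460 RPKM), and each neighbour in this order from CCND3 on overlapped the next (CCND3 and CDKN2A, CDKN2A and CDKN2B, CDKN2B and CDK6). In HeyA8 cells CDKN1B (19.5 ± 3.69 RPKM) and CDK6 (11.6 ± 0.826 RPKM) stood above RBL2 (6.77 ± 0.268 RPKM) and CCND3 (3.90 ± 0.084 RPKM). CCND2 was near 0 in both lines (0.014 ± 0.014 RPKM in PC3 and 0.028 ± 0.024 RPKM in HeyA8 cells, 1 to 8 reads per mock library).

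**Figure D1:**
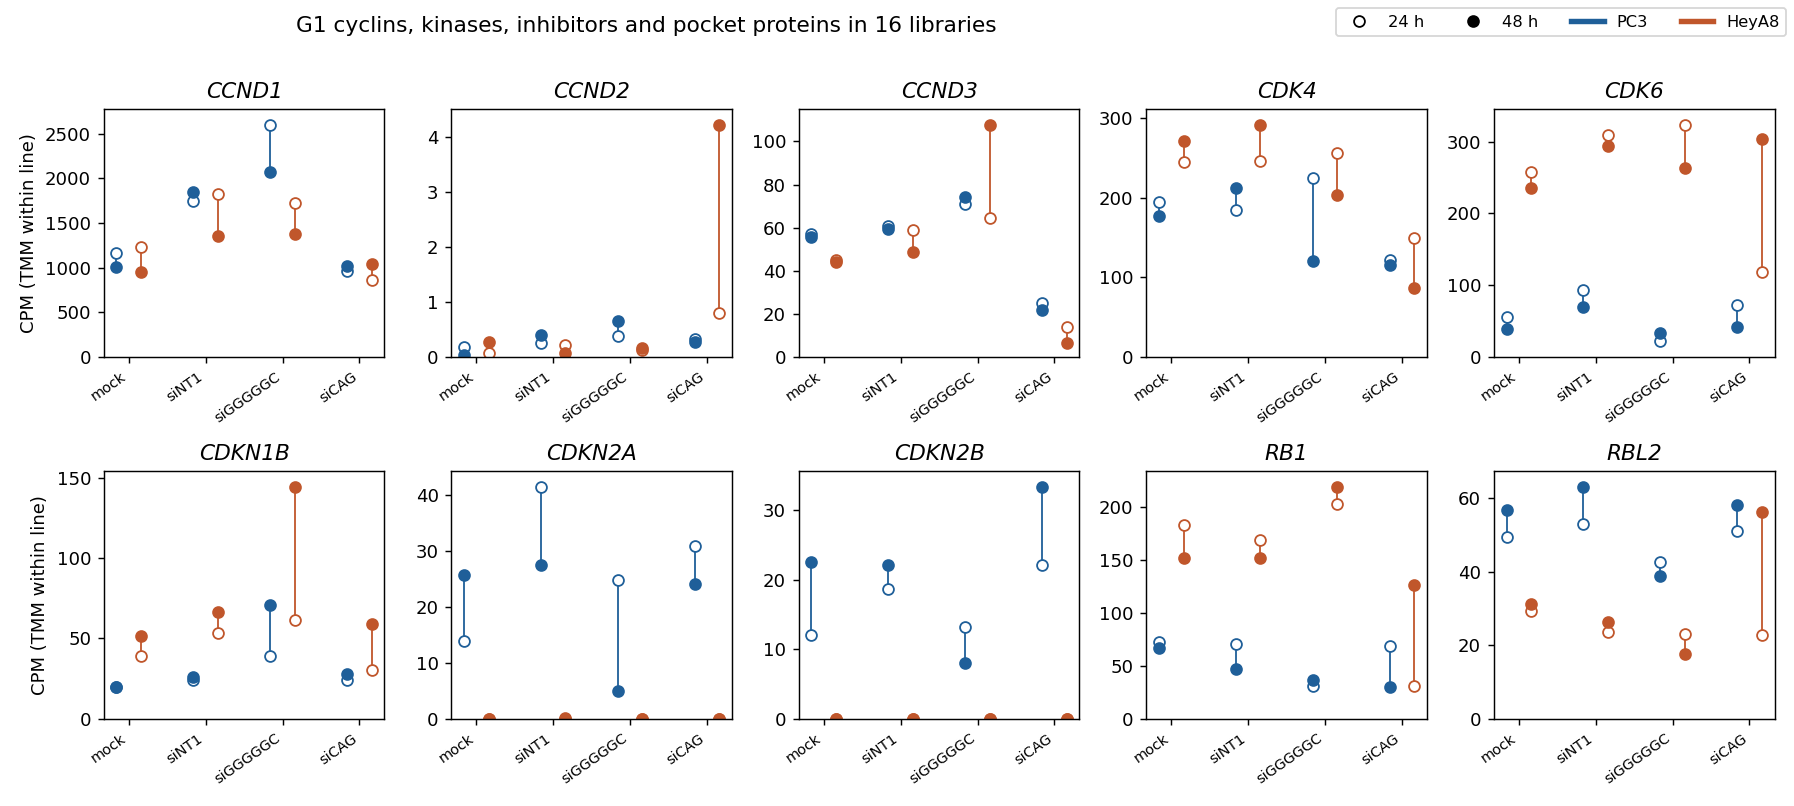
Level of each gene in CPM (counts scaled for library size by TMM within a line; linear axes from 0) for each treatment; open circles are 24 h libraries, filled circles 48 h libraries, blue PC3 and orange HeyA8 cells, and a line joins the 2 libraries of a treatment. CDK6 was lowest after siGGGGGC in PC3 cells, CCND3 was lowest after siCAG in both lines, and CDKN2A and CDKN2B lay at or next to 0 in HeyA8 cells.

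After siGGGGGC in PC3 cells, CDK6 fell and CDKN1B rose, and no other member passed the test. After siCAG, CCND3 fell in PC3 cells and in HeyA8 cells. In HeyA8 cells treated with siGGGGGC no member and no gene passed the test when all 8 libraries of the line, siCAG included, were fitted. Genes were called in the fit without the siCAG libraries, as given below. Counts were compared with edgeR's quasi-likelihood test with treatment and time as terms, all 8 libraries of a line sharing the estimate of spread, and a call means a p under 0.05 after Benjamini-Hochberg adjustment over all genes tested. Both siRNAs were compared with the same siNT1 libraries. Of the members, 10 of 10 in PC3 and 8 of 10 in HeyA8 cells passed the filter on low counts, which removed CDKN2A and CDKN2B in HeyA8 cells.

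The calls among the members were few in every comparison with siNT1. With siGGGGGC in PC3 cells, 1 of 10 members was called higher against 3.67% of 15136 genes, and 1 was called lower against 6% of genes. With siCAG in PC3 cells, 0 members were called higher (0.0396% of genes) and 1 was called lower (1.16% of genes). In HeyA8 cells, siGGGGGC gave 0 calls among 13872 genes (0%), with 1352 genes at an unadjusted p under 0.05 and 318 called by DESeq2, none of the 8 tested members being at p under 0.05. With siCAG in HeyA8 cells, 0 members were called higher (2.88% of genes) and 1 was called lower (4.93% of genes). The unadjusted p was under 0.05 for 6 of 10 members with siGGGGGC in PC3 cells, beside 4864 of all 15136 genes, for 3 of 10 with siCAG in PC3 cells, beside 2037, and for 4 of 8 with siCAG in HeyA8 cells, beside 4094 of 13872. The members' median log2 fold change was -0.38 with siGGGGGC in PC3 cells (0.0029 over all genes), -0.30 with siCAG in PC3 cells (-0.0056), -0.03 with siGGGGGC in HeyA8 cells (0.0040) and -0.64 with siCAG in HeyA8 cells (-0.011).

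**Figure D2:**
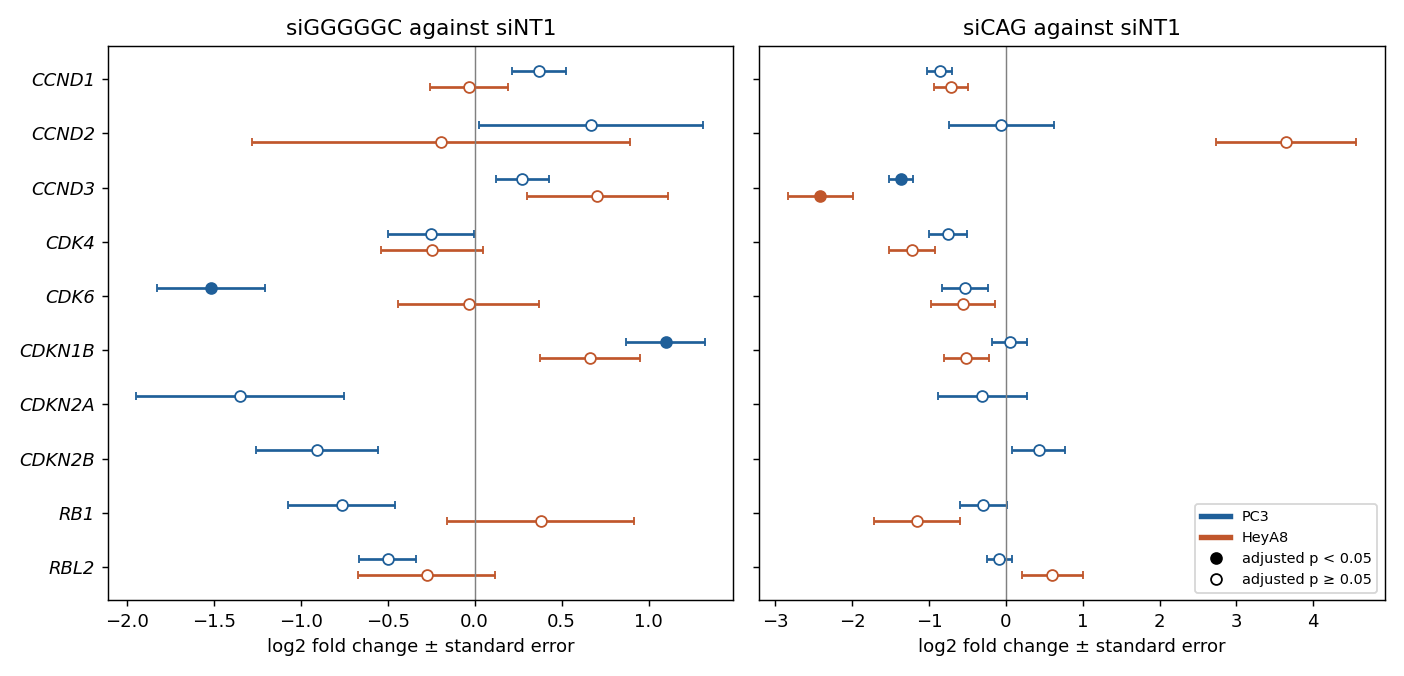
Log2 fold change (x axis, ± standard error) of each member after siGGGGGC (left) and siCAG (right) against siNT1 in PC3 (blue) and HeyA8 cells (orange), from edgeR; filled points have an adjusted p under 0.05, and genes without an orange point were not tested in HeyA8 cells. CDK6 and CDKN1B in PC3 cells (siGGGGGC) and CCND3 in both lines (siCAG) are the filled points, and the x axes of the panels differ.

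Among the D-type cyclins, CCND1 (chr11:69641105-69654474, hg38) was the most abundant, and its siNT1 libraries lay above the mock libraries in both lines. In PC3 cells it stood at 1160 and 1004 CPM in mock-treated cells (24 h and 48 h), 1747 and 1845 CPM after siNT1, 2591 and 2072 CPM after siGGGGGC, and 956 and 1018 CPM after siCAG. In HeyA8 cells it stood at 1229 and 955 CPM (mock), 1822 and 1355 CPM (siNT1), 1717 and 1380 CPM (siGGGGGC), and 860 and 1038 CPM (siCAG). Both siNT1 libraries of PC3 cells thus lay above both mock libraries and below both siGGGGGC libraries, and the siCAG libraries overlapped mock in both lines. The log2 difference of siNT1 from mock was 0.74 (standard error 0.16, adjusted p = 0.177) in PC3 and 0.54 (standard error 0.22, adjusted p = 1) in HeyA8 cells by edgeR. Against siNT1, the change of CCND1 with siGGGGGC was 0.37 (adjusted p = 0.149) in PC3 and -0.03 (adjusted p = 0.985) in HeyA8 cells. With siCAG it was -0.86 (standard error 0.16, adjusted p = 0.0508) in PC3 and -0.72 (standard error 0.22, adjusted p = 0.0924) in HeyA8 cells, and in PC3 cells DESeq2 called it (adjusted p = 0.000654). edgeR called it in PC3 cells without the 24 h or 48 h siGGGGGC library (-0.87 in both, adjusted p = 0.0123 and 0.0166) and in HeyA8 cells without the 48 h siCAG library (-1.06, adjusted p = 0.00191). Without the 24 h siGGGGGC library of PC3 cells the difference of siNT1 from mock was called as well (0.73, adjusted p = 0.0471). Against mock as the control, the siGGGGGC difference of CCND1 in PC3 cells was 1.11 (adjusted p = 0.00725) and the siCAG difference -0.13 (adjusted p = 0.686).

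CCND3 (chr6:41934933-42048894), a D-type cyclin known mainly from the development of lymphocytes, was lower after siCAG in both lines. In PC3 cells it stood at 57.2 and 55.6 CPM (mock), 61.0 and 59.4 CPM (siNT1), 71.0 and 74.4 CPM (siGGGGGC), and 25.3 and 21.7 CPM (siCAG). In HeyA8 cells the values were 45.2 and 44.2 CPM (mock), 58.9 and 48.5 CPM (siNT1), 64.4 and 107 CPM (siGGGGGC), and 13.9 and 6.52 CPM (siCAG). In each line, both siCAG libraries lay below the 6 other libraries. The fall against siNT1 was -1.36 (standard error 0.16, adjusted p = 0.00662) in PC3 and -2.42 (standard error 0.43, adjusted p = 0.0274) in HeyA8 cells by edgeR's test, and against mock it was also called in PC3 cells (-1.27, adjusted p = 0.00812). The call in PC3 cells was lost without the 48 h siCAG library (-1.26, adjusted p = 0.112) or without the 24 h (-1.38, adjusted p = 0.0844) or 48 h siNT1 library (-1.31, adjusted p = 0.164). In HeyA8 cells it was lost without the 24 h or 48 h mock library (-2.43, adjusted p = 0.0584 and 0.0609) or the 24 h or 48 h siNT1 library (-2.34 and -2.50, adjusted p = 0.169 and 0.164), and the fall was -3.13 without the 24 h and -1.90 without the 48 h siCAG library. After siGGGGGC the 48 h HeyA8 library was the highest of that line, and the change was 0.70 (standard error 0.40, adjusted p = 0.640) in HeyA8 and 0.27 (standard error 0.15, adjusted p = 0.248) in PC3 cells. The HeyA8 value was 0.040 without the 48 h and 1.23 without the 24 h siGGGGGC library.

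CCND2 (chr12:4273736-4305356) was close to silent except after siCAG in HeyA8 cells. PC3 libraries held 5 and 1 reads (mock), 7 and 11 reads (siNT1), 11 and 18 reads (siGGGGGC), and 10 and 8 reads (siCAG). HeyA8 libraries held 2 and 8 reads (mock), 7 and 2 reads (siNT1), 4 and 5 reads (siGGGGGC), and 25 and 130 reads (siCAG). The siCAG libraries of HeyA8 cells lay above the 6 others, the 48 h library far above that of 24 h. The difference from siNT1 was 3.64 (standard error 0.91) and missed the threshold by edgeR (adjusted p = 0.0577), but was called by DESeq2 (adjusted p = 0.00296), and by edgeR without the filter on low counts (adjusted p = 0.0441) and without the 24 h siCAG library (4.62, adjusted p = 0.00719). Without any other library of the line it was not called, with 2.49 without the 48 h siCAG library, 5.55 without the 24 h siNT1 library and 2.18 without the 48 h siNT1 library (adjusted p = 0.0898, 0.102 and 0.425). Even the highest library, with 130 reads, stood at 0.743 RPKM, and the remaining differences of CCND2 rested on counts too low to separate the groups.

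Of the D-cyclin kinases, CDK6 (chr7:92604921-92836627) fell after siGGGGGC in PC3 cells. It stood at 55.4 and 38.4 CPM (mock), 93.4 and 69.6 CPM (siNT1), 22.0 and 33.1 CPM (siGGGGGC), and 73.0 and 41.4 CPM (siCAG). Both siGGGGGC libraries were below the 6 other PC3 libraries, with means of 27.5 ± 7.88 CPM and 81.5 ± 16.9 CPM after siGGGGGC and siNT1 (SD, n = 2). On the log2 scale CDK6 thus changed by -1.51 (edgeR, standard error 0.31, adjusted p = 0.0306), with -2.09 at 24 h and -1.07 at 48 h in the single libraries. It was called without the 24 h (-1.0) and without the 48 h siGGGGGC library (-2.22). siNT1 itself stood above mock (0.80, standard error 0.30, adjusted p = 0.475), and against mock the siGGGGGC difference was -0.71 (adjusted p = 0.128). The call was also lost without the 24 h or 48 h mock library (-1.54 in both, adjusted p = 0.0653 and 0.0655) or the 24 h or 48 h siNT1 library (-1.45 and -1.60, adjusted p = 0.135 and 0.206).

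In HeyA8 cells CDK6 stood at 258 and 235 CPM (mock), 309 and 294 CPM (siNT1), 323 and 263 CPM (siGGGGGC), and 119 and 304 CPM (siCAG). The siGGGGGC libraries overlapped those of siNT1 (-0.03, standard error 0.40, adjusted p = 0.992), and only the 24 h siCAG library was low (siCAG against siNT1 -0.56, adjusted p = 0.406, but -1.43 and adjusted p = 0.000688 without the 48 h and 0.087 without the 24 h siCAG library). The difference between the lines in the response of CDK6 to siGGGGGC was -1.49 (standard error 0.54, unadjusted p = 0.018) and did not pass after adjustment (adjusted p = 0.715).

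CDK4 (chr12:57747727-57752447) was lower after siCAG in both lines without passing the test. In PC3 cells it stood at 194 and 177 CPM (mock), 185 and 213 CPM (siNT1), 225 and 120 CPM (siGGGGGC), and 122 and 115 CPM (siCAG). In HeyA8 cells the values were 245 and 272 CPM (mock), 246 and 291 CPM (siNT1), 256 and 203 CPM (siGGGGGC), and 149 and 86.7 CPM (siCAG). Both siCAG libraries of HeyA8 cells lay below the 6 others, whereas in PC3 cells they overlapped the 48 h siGGGGGC library. The siCAG change was -0.75 (standard error 0.25, adjusted p = 0.242) in PC3 and -1.22 (standard error 0.30, adjusted p = 0.0556) in HeyA8 cells by edgeR, and DESeq2 called the latter (adjusted p = 0.00370). edgeR called it in HeyA8 cells without the 24 h (-1.65, adjusted p = 0.00174) or 48 h siCAG library (-0.85, adjusted p = 0.0192), and in PC3 cells without the 24 h or 48 h siGGGGGC library (-0.75 in both, adjusted p = 0.025 and 0.0341). The value in PC3 cells was -0.41 without the 48 h siNT1 library. With siGGGGGC the 24 h and 48 h libraries of PC3 cells moved in opposite directions (0.28 and -0.82), and the change was -0.25 in both lines (adjusted p = 0.510 in PC3 and 0.850 in HeyA8 cells). Without the 24 h siGGGGGC library it was -0.74 in PC3 cells and passed the test (adjusted p = 0.0189), and without that of 48 h it was 0.12.

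Among the inhibitors, CDKN1B (chr12:12717270-12722382) rose after siGGGGGC in PC3 cells. It stood at 19.5 and 19.8 CPM (mock), 23.8 and 26.2 CPM (siNT1), 39.2 and 70.5 CPM (siGGGGGC), and 24.1 and 27.7 CPM (siCAG). Both siGGGGGC libraries lay above the 6 others, and CDKN1B rose by 1.10 on the log2 scale (edgeR, standard error 0.23, adjusted p = 0.0309), with 0.72 at 24 h and 1.43 at 48 h. Against mock it was 1.44 (adjusted p = 0.00941). The call was lost without the time term (1.13, adjusted p = 0.0524), without the 24 h or 48 h mock library (1.08 in both, adjusted p = 0.0653 and 0.0655), without the 48 h siGGGGGC library (0.66, adjusted p = 0.0652, against 1.42 without that of 24 h), and without the 24 h or 48 h siNT1 library (1.19 and 0.99, adjusted p = 0.142 and 0.280).

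In HeyA8 cells CDKN1B stood at 38.8 and 51.3 CPM (mock), 53.6 and 66.6 CPM (siNT1), 61.3 and 144 CPM (siGGGGGC), and 30.3 and 58.6 CPM (siCAG). The 48 h library was the higher one in each of the 4 treatments, and the 48 h siGGGGGC library was the highest of the line. The siGGGGGC change was 0.66 (standard error 0.29, adjusted p = 0.521), with 0.31 without the 48 h and 0.98 without the 24 h siGGGGGC library, and the change from 24 h to 48 h was 0.73 (standard error 0.20, unadjusted p = 0.010, adjusted p = 0.724 by edgeR). When only the 4 siGGGGGC and siNT1 libraries of HeyA8 cells were fitted, which leaves 1 residual degree of freedom, 411 of 13312 genes were called higher (3.09%), among them the members CDKN1B (0.66, adjusted p = 0.0319) and CCND3 (0.64, adjusted p = 0.0461), in both of which the 48 h siGGGGGC library stood well above that of 24 h.

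CDKN2A (chr9:21967752-21994491), whose symbol covers both p16 and the alternative reading frame protein ARF, stood in PC3 cells at 14.0 and 25.6 CPM (mock), 41.4 and 27.6 CPM (siNT1), 24.8 and 4.88 CPM (siGGGGGC), and 30.9 and 24.1 CPM (siCAG). CDKN2B (chr9:22002903-22009313) stood at 12.0 and 22.5 CPM (mock), 18.7 and 22.0 CPM (siNT1), 13.2 and 7.93 CPM (siGGGGGC), and 22.1 and 33.3 CPM (siCAG). For both genes the siGGGGGC libraries were lower than those of siNT1 and the 48 h library was the lowest of the line, but they overlapped the mock libraries. The changes of -1.35 (standard error 0.60, adjusted p = 0.163) for CDKN2A and -0.91 (standard error 0.35, adjusted p = 0.125) for CDKN2B did not pass edgeR's test. Both rested on the 48 h library: without the 24 h siGGGGGC library they were -2.81 (adjusted p = 0.00571) and -1.66 (adjusted p = 0.00458) and passed the test, and without that of 48 h they were -0.54 and -0.39 and did not. Antisense genes overlap or adjoin this locus. CDKN2B-AS1 (chr9:21994791-22121094, 354 reads over the 8 PC3 libraries) spans the position of CDKN2B and lies outside CDKN2A. CDKN2A-AS1 (chr9:21967139-21967754, 23 reads) overlaps CDKN2A only at its end. Whether strand was used in counting is not stated, so reads from a stretch shared by a gene and its antisense gene cannot be told apart.

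Neither pocket protein was called against siNT1. RB1 (chr13:48303747-48481890) stood in PC3 cells at 72.8 and 67.1 CPM (mock), 71.0 and 47.0 CPM (siNT1), 30.6 and 36.3 CPM (siGGGGGC), and 68.6 and 30.2 CPM (siCAG), and the siGGGGGC libraries lay below those of siNT1 and mock (-0.76, standard error 0.31, adjusted p = 0.135 against siNT1, with -0.37 without the 24 h and -1.28 without the 48 h siGGGGGC library). Against mock the difference of RB1 was -1.04 (adjusted p = 0.0480). RBL2 (chr16:53434439-53491648) stood at 49.5 and 56.7 CPM (mock), 53.1 and 63.1 CPM (siNT1), 42.8 and 38.9 CPM (siGGGGGC), and 51.2 and 58.3 CPM (siCAG). Both siGGGGGC libraries of RBL2 were below the 6 others, a change of -0.50 (standard error 0.16, adjusted p = 0.0850) that missed the threshold but passed it without the 24 h siGGGGGC library (-0.69, adjusted p = 0.0208).

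In HeyA8 cells RB1 stood at 183 and 152 CPM (mock), 169 and 152 CPM (siNT1), 203 and 219 CPM (siGGGGGC), and 30.9 and 127 CPM (siCAG). RBL2 stood at 29.3 and 31.2 CPM (mock), 23.7 and 26.4 CPM (siNT1), 23.0 and 17.6 CPM (siGGGGGC), and 22.8 and 56.2 CPM (siCAG). The siCAG libraries carried most of the variation of both genes, the 24 h library being low in RB1 and the 48 h library high in RBL2. Neither gene passed edgeR's test after siCAG (RB1 -1.16, adjusted p = 0.217, and RBL2 0.60, adjusted p = 0.350) or after siGGGGGC (RB1 0.38, adjusted p = 0.883, and RBL2 -0.28, adjusted p = 0.883). Without the 48 h siCAG library, the siCAG difference of RB1 was -2.43 and passed the test (adjusted p = 0.000193), whereas without that of 24 h it was -0.30 (adjusted p = 0.218). The difference of RBL2 was 1.18 and passed the test without the 24 h siCAG library (adjusted p = 0.00755), and was -0.17 without that of 48 h.

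Transfection with siNT1 and time alone called no member in edgeR's fit of all 8 libraries of a line. Some alternative fits, given below, did call members. Between siNT1 and mock, 0 of 10 members were called in PC3 cells, where 0.231% of genes were called, and 0 of 8 in HeyA8 cells, where 0% of genes were called (177 genes at an unadjusted p under 0.05, 1 by DESeq2). DESeq2 called CCND1 in the PC3 comparison (adjusted p = 0.0155). Between 48 h and 24 h, 0 members were called in PC3 cells (0.0264% of genes) and 0 in HeyA8 cells (0% of genes, 879 at an unadjusted p under 0.05, 61 by DESeq2).

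The other genes of the pathway were read as 35 genes in 6 groups: cyclin E, CDK2 and their activators, other CDK inhibitors, E2F and DP factors with the pocket protein RBL1, the MuvB core that binds RBL1 and RBL2, the CDK-activating kinase with the chaperone CDC37, and genes of D-type cyclin turnover. All 35 were tested in both lines. After siGGGGGC in PC3 cells 1 of the 35 rose, where 3.67% of all genes did, and 2 fell, where 6% did, so that the share of called genes was close to that of all genes, with a median log2 fold change of 0.085 beside 0.0029 over all genes. E2F5, a repressive E2F, rose by 1.10 (standard error 0.25, adjusted p = 0.0379), RBL1 (p107) fell by 1.03 (standard error 0.22, adjusted p = 0.0335), and CDKN1A (p21) fell by 1.17 (standard error 0.27, adjusted p = 0.0392). CDKN1A stood at 20.8 and 11.0 CPM in mock, 52.2 and 31.8 CPM in siNT1 and 31.4 and 9.77 CPM in siGGGGGC libraries, and against mock its direction turned (0.26). After siGGGGGC in HeyA8 cells 0 of the 35 were called, and after siCAG in PC3 cells only CDC25A was (1.16% of all genes fell), the phosphatase that activates CDK2, with a fall of 1.57 (standard error 0.23, adjusted p = 0.0188). The 3 calls with siGGGGGC were each lost without any one of the mock, the siNT1 or the 48 h siGGGGGC libraries of PC3 cells (log2 change of CDKN1A -1.35 to -0.79, RBL1 -1.19 to -0.87, E2F5 0.62 to 1.31), and that of CDC25A without either mock, either siCAG or the 48 h siNT1 library (-1.67 to -1.18).

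After siCAG in HeyA8 cells 1 of the 35 rose, where 2.88% of all genes did, and 11 fell, where 4.93% did, with a median of -0.54 beside -0.011 over all genes. Of the cyclin E and CDK2 group 5 of 6 fell (median -1.95). CCNE2, a cyclin E, stood at 120 and 66.2 CPM in mock, 67.5 and 29.9 CPM in siNT1, 126 and 127 CPM in siGGGGGC, and 0.449 and 1.20 CPM in siCAG libraries, so the siCAG libraries lay far below all others (-5.78, standard error 0.65, adjusted p = 0.00815). CCNE1 (-2.19), CDK2 (-1.71), CDC25A (-4.90) and SKP2 (-1.53), the F-box protein that marks p27 for degradation, also fell, while CKS1B, a cofactor of SKP2, did not pass the test (79.6 and 8.72 CPM after siCAG, 87.1 and 113 CPM after siNT1).

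In the E2F group 3 of 11 fell, namely RBL1 (-3.20), E2F1 (-4.09) and E2F2 (-6.63). E2F2 stood at 8.33 and 4.50 CPM after siNT1 and at 0.128 and 0 CPM after siCAG, and its fitted fold change rests on the near absence of reads. Of the MuvB core LIN9 (-2.74) and LIN54 (-1.25) fell, 2 of 5, and of the turnover group FBXO4 (-1.53), 1 of 5. CDKN1A was the gene that rose (2.11, standard error 0.26, adjusted p = 0.00993), from 404 and 362 CPM after siNT1 to 1541 and 1767 CPM after siCAG. The group of the CDK-activating kinase had 0 of 4 calls. The adjusted p-values of the 12 called genes lay between 0.00263 and 0.0407 by edgeR. CCNE2, RBL1 and E2F2 passed the test whichever of the 8 HeyA8 libraries was left out. Without either siNT1 library the other 9 did not pass, nor did CCNE1, CDK2, SKP2, LIN54 and FBXO4 without either mock library, CDK2, CDC25A, E2F1, LIN54 and FBXO4 without either siGGGGGC library, and SKP2 without the 48 h siGGGGGC library, all with the same direction. The size of the largest falls depended on the siCAG library left out, that of 24 h or that of 48 h: -5.94 or -3.12 for E2F1, -10.06 or -6.03 for E2F2, -6.67 or -3.93 for CDC25A and -4.92 or -7.0 for CCNE2.

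**Figure D3:**
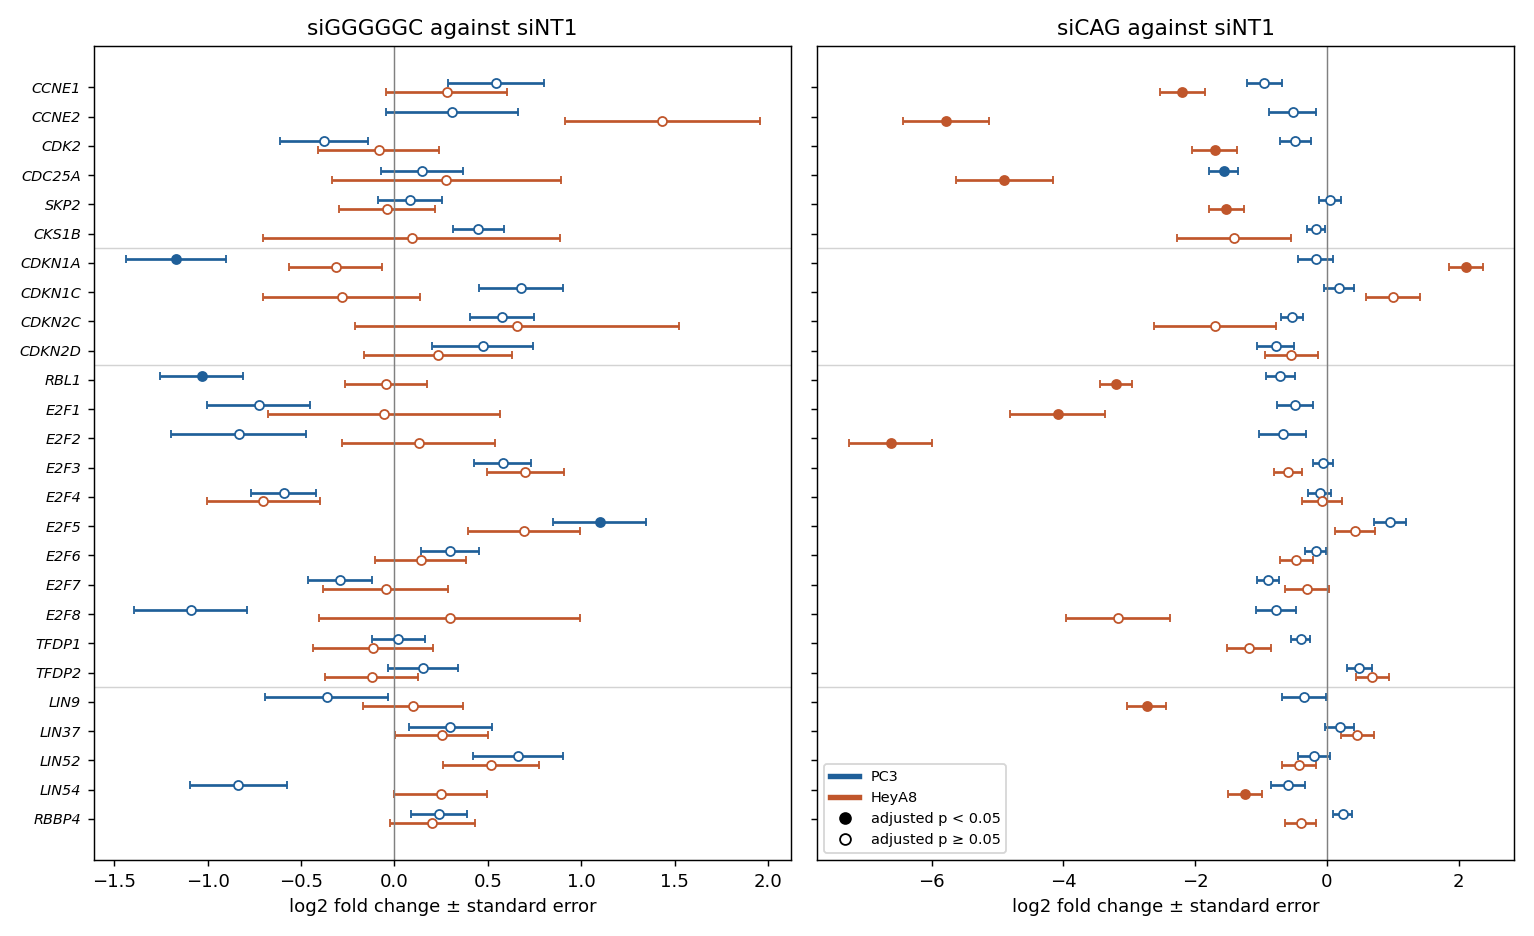
Log2 fold change (x axis, ± standard error) of 26 genes of 4 pathway groups (separated by grey lines) after siGGGGGC (left) and siCAG (right) against siNT1 in PC3 (blue) and HeyA8 cells (orange), from edgeR; filled points have an adjusted p under 0.05, and the x axes of the panels differ. After siCAG in HeyA8 cells CCNE2, CDC25A, RBL1, E2F1 and E2F2 lie at or below -3.20, and CDKN1A lies at 2.11.

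The difference between the lines in these responses was tested over all 16 libraries. For siGGGGGC 0 members and 0% of 15887 genes were called, with 1054 genes at an unadjusted p under 0.05 and 19 called by DESeq2. For siCAG 0 members were called beside 0.636% of genes, the difference in CCND3 being 0.93 (standard error 0.48, adjusted p = 0.403) and that in CCND2 -3.83 (standard error 1.18, adjusted p = 0.175), with a median of -0.13 over all genes. The fall of CCND3 was therefore not shown to differ between PC3 and HeyA8 cells.

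Among the members, the mock-treated lines differed most in CDKN2A, CDKN2B and CDK6. Between mock-treated PC3 and HeyA8 cells 2 of 10 members were called higher in PC3 cells, where 25.6% of genes were, and 2 were called lower, where 19.9% of genes were, so that the share of called members was close to that of all genes. The 2 called higher, CDKN2A and CDKN2B, had 0 reads in the HeyA8 mock libraries, so their calls only restate that absence. CDK6 was lower in PC3 cells by -2.50 (standard error 0.43, adjusted p = 0.000768) and CDKN1B by -1.31 (standard error 0.29, adjusted p = 0.00391), and the call of CDKN1B was lost without the 24 h HeyA8 mock library (-1.04, adjusted p = 0.0830). CCND1 (-0.40), CCND2 (-0.26), CCND3 (-0.05), CDK4 (-0.80), RB1 (-1.22) and RBL2 (0.55) did not pass edgeR's test, at adjusted p-values of 0.150, 0.866, 0.923, 0.0843, 0.0782 and 0.208. CCND1 (-0.42 and -0.47) and RB1 (-1.37 and -1.42) passed it without the 24 h or 48 h siCAG library of HeyA8 cells (RB1 was -0.61 without the 24 h HeyA8 mock library), and CDK4 (-0.91 and -0.86) without the 24 h or 48 h siGGGGGC library of PC3 cells.

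CDKN2A and CDKN2B, the members called higher in PC3 cells, had almost no reads in HeyA8 cells. Over the 8 HeyA8 libraries, 1 of 244939985 reads fell on CDKN2A (in the 24 h siNT1 library) and 0 on CDKN2B. Against a limit of 3 reads over the 2 mock libraries of HeyA8 cells (0.0541 CPM, for counting error only), mock-treated PC3 cells had at least 325-fold more CDKN2A (17.6 CPM on the scale of all 16 libraries) and at least 283-fold more CDKN2B (15.3 CPM). Both had 0 reads in the HeyA8 mock libraries and passed the filter over the 16 libraries through PC3 cells alone. Their calls by edgeR's test (adjusted p = 0.00150 and 0.000197) are thus set against a count of 0 and add nothing to these limits. Without the 24 h HeyA8 mock library both had an adjusted p of 1, although the counts of the remaining HeyA8 mock library were also 0.

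Their neighbors showed the same pattern. From IFNA6 (start 21350318) to LOC100506422 (end 26118408) on chromosome 9 (hg38) lie 21 consecutive genes, CDKN2A and CDKN2B among them. Together they had 2 reads over the 8 HeyA8 libraries, 1 on CDKN2A and 1 on TUSC1. Over the 8 PC3 libraries they had 40978 reads, of which 5582 fell on CDKN2A and 4391 on CDKN2B. In PC3 cells 11 of the 21 genes, CDKN2A and CDKN2B included, had more than 100 reads. MTAP, a gene of methionine salvage next to CDKN2A, had 14871 reads in PC3 and 0 in HeyA8 cells, and mock-treated PC3 cells had at least 1420-fold more of it. CDKN2B-AS1 was at least 31.1-fold higher in mock-treated PC3 cells. The flanking genes were read in both lines, with 9097 reads in PC3 and 10419 in HeyA8 cells for KLHL9, and with 3402 and 4572 reads for CAAP1. Farther out, LINGO2 (start 27948086) had 287 reads in PC3 and 0 in HeyA8 cells. The DNA of this region was not measured here.

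**Figure D4:**
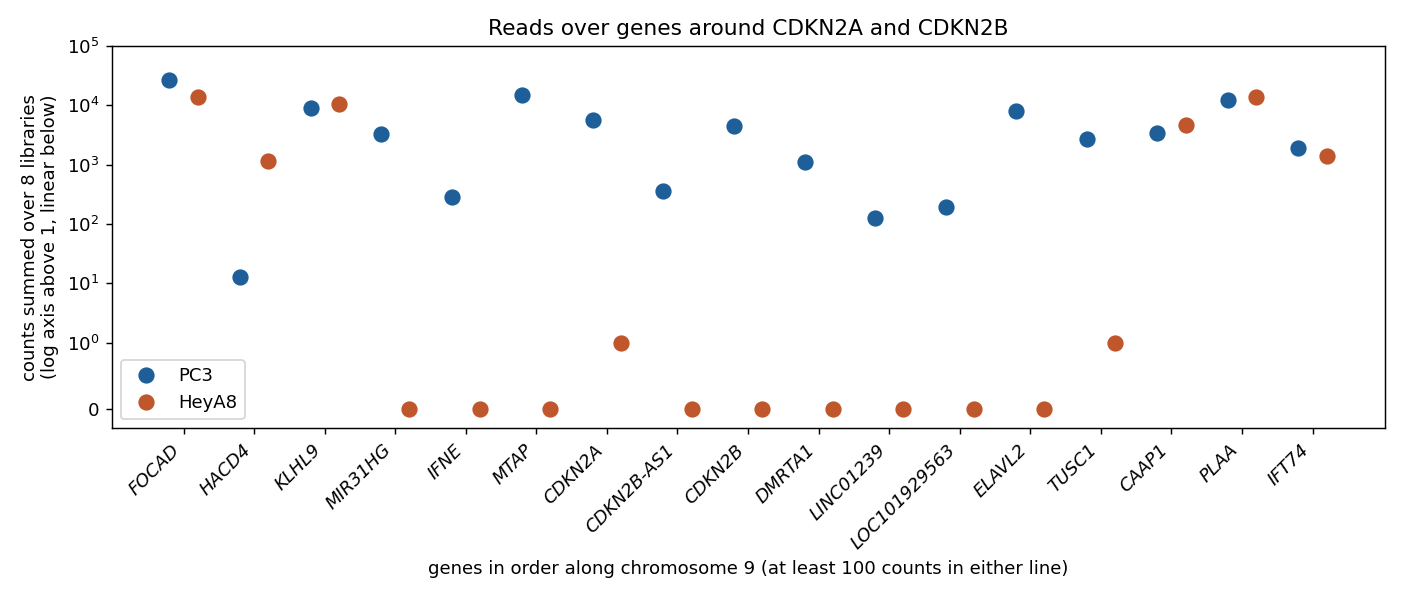
Reads summed over the 8 libraries of PC3 (blue) and HeyA8 cells (orange) on the genes from FOCAD to IFT74, around CDKN2A and CDKN2B, in their order along chromosome 9; the y axis is logarithmic above 1 and linear below, and genes with under 100 reads in both lines are left out. HeyA8 cells had 0 or 1 reads on the 11 genes from MIR31HG to TUSC1, and both lines had reads on the plotted genes on either side.

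CCND2 and CCND3 varied most among the members over the 16 libraries, with an SD of log2 CPM around the mean of each line of 1.31 and 0.98, and RBL2 least, with 0.38. CDKN2A (0.67) and CDKN2B (0.45) had almost no reads in HeyA8 cells. Their SD thus rests on PC3 cells and understates their spread there. The genes most like CCND3 in this measure, among 9566 genes with a mean of at least 10 CPM, were SNRPA1 (Pearson's r = 0.985), APLN (r = 0.976) and P3H3 (r = 0.974). Those most like CCND2 were IKBKE (r = 0.920), ISCU (r = 0.896) and MIR22HG (r = 0.895). The libraries share lines and treatments, and the low siCAG values of CCND3 and the high 48 h siCAG value of CCND2 in HeyA8 cells set much of the range, so these values are descriptions.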

How the data were processed

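RNA-seq libraries were made by the authors from total RNA with depletion of ribosomal RNA and sequenced as paired ends. The reads were trimmed with Trimmomatic and aligned to hg38; the labels name STAR and HTSeq, and the methods name Tophat or STAR. The authors deposited counts of exonic reads per gene, as whole numbers without normalization, and 0 columns belonged to no sample. Sample groups came from the labels, where the titles give siGGGGGC another name.

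Within each line, genes were kept by filterByExpr, scaled by TMM, and tested with the quasi-likelihood test of edgeR 4.0.16 in R 4.3.3 with treatment and time as terms, over 8 libraries. The lines were compared over all 16 libraries. RPKM used the gene length of the deposited table. How that length was counted is not stated, and for CDKN2B (7845 bases) it exceeds the span of the gene's coordinates (22002903 to 22009313). RPKM values of different genes therefore depend on it, whereas a comparison of the same gene between lines does not. The CPM of a line and that over all 16 libraries differ by up to 24.1%, so the former was used within a line and RPKM between genes or lines. Single time points, with 1 library each, were not tested. Coordinates are those of the deposited table, and 3′ UTRs came from GENCODE v44, which is later than the Ensembl release named by the study.

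The members and the gene lists were chosen with earlier results of these data known. Named were all members, each pathway gene called in the comparison described, up to 4 further genes of a list for its level, and for the 2 most variable members the 3 genes with the highest correlation. Reads on the flanking genes of chromosome 9 were added after their values were seen. The test was checked on simulated counts. Alternatives were RLE size factors, DESeq2 1.42.0, no filter, no time term, mock as the control, the compared libraries alone, each library left out in turn and, added after seeing the data, no siCAG libraries. The sequences of 2 sites and the level of 1 marker gene are not reported here. Intervals and limits cover counting error only.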

Additional observations from a re-analysis of the deposited data

Results flagged for a closer look

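For 4 of the 35 other pathway genes, and for 0.636% of 15887 genes in all, the response to siCAG differed between the lines by a test of the difference itself (edgeR, all 16 libraries), with positive values where the log2 change in PC3 cells was the higher one. The difference was 5.15 for CCNE2 (standard error 0.73, adjusted p = 0.0115), 2.37 for RBL1 (standard error 0.33, adjusted p = 0.0110) and 5.82 for E2F2 (standard error 0.81, adjusted p = 0.0110), all of which fell in HeyA8 cells. For CDKN1A, which rose in HeyA8 cells, it was -2.39 (standard error 0.40, adjusted p = 0.0286). In PC3 cells siCAG left CCNE2 at 27.9 and 10.2 CPM (siNT1 34.3 and 18.7 CPM) and CDKN1A at 43.7 and 29.6 CPM (siNT1 52.2 and 31.8 CPM). When each of the 16 libraries was left out in turn, CCNE2 was called 12 times, RBL1 and E2F2 11 times each and CDKN1A 8 times. Without the 24 h or 48 h HeyA8 siCAG library the difference was 9.49 or 5.19 for E2F2 and 4.31 or 6.32 for CCNE2. The HeyA8 siCAG libraries are also those that differed most between 24 h and 48 h, and the part of this in the difference was not tested. No group had enough libraries for a test of single outlying libraries.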

How the results depend on the processing

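Of the values of single genes under alternatives other than leaving out 1 library, 354 kept their direction and side of the threshold, 18 lost and 26 gained a call, and 9 changed sign. With mock as the control the sign changed for CDKN1A (0.26) with siGGGGGC in PC3 cells, for CCND2 (1.54), CDK6 (0.27), CDKN2A (0.37) and RBL2 (0.043) with siCAG in PC3 cells, and for CCND1 (0.51) and CDK6 (0.25) with siGGGGGC in HeyA8 cells. For CCND3 between the mock lines it changed without the time term (0.022) and with the 4 mock libraries alone (0.00069). The causes were not tested.

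The number of genes called was 1463 for siGGGGGC in PC3 cells, 182 for siCAG in PC3 cells, 35 for siNT1 against mock in PC3 cells, 4 for time in PC3 cells, 0, 1083, 0 and 0 for the same comparisons in HeyA8 cells, 7234 between the mock lines, and 0 and 101 for the differences between the lines in siGGGGGC and siCAG. The time term was the replicate block, since 24 h and 48 h mark the replicates. With no replicate block the counts were 625 (1 member), 6 for siNT1 in PC3 cells, 3 for siGGGGGC and 1187 (3 members) for siCAG in HeyA8 cells, and 51 for the siCAG difference, and other counts stayed within 1.5 times. With DESeq2 they were 2859, 572 (2 members), 266 (1 member) and 219 in PC3 cells, 318, 2665 (3 members), 1 and 61 in HeyA8 cells, and 19 and 671 for the differences. With mock as the control they were 3200 and 391 in PC3 cells and 1244 (2 members) for siCAG in HeyA8 cells. With the compared libraries alone, which leaves 1 residual degree of freedom, they were 438 (1 member), 2346 (4 members) and 253 (2 members) in PC3 cells, 1180 (2 members), 580 (2 members) and 1574 (4 members) in HeyA8 cells, and 11108 (8 members) between the mock lines. For time, mock and siNT1 libraries alone gave 10 in PC3 and 1591 (2 members) in HeyA8 cells. Without the filter, siCAG called 257 genes (2 members) in PC3 and 1240 (3 members) in HeyA8 cells, siNT1 82 genes and time 9 in PC3 cells, and siGGGGGC 18 genes in HeyA8 cells. Without the siCAG libraries, siNT1 called 11 and time 0 genes in PC3 cells, and siGGGGGC 477 and time 6 genes in HeyA8 cells.

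When each library was left out in turn (the lone library of a treatment then being assumed to vary like the others), genes called ranged from 0 to 3702 for siGGGGGC, 30 to 497 for siCAG, 0 to 157 for siNT1 and 0 to 6 for time in PC3 cells, from 0 to 477, 42 to 4690, 0 to 0 and 0 to 11 in HeyA8 cells, from 4325 to 8718 between the mock lines, and from 0 to 0 and 1 to 1520 for the siGGGGGC and siCAG differences. Members called ranged from 0 to 6 for siGGGGGC, 0 to 3 for siCAG and 0 to 1 for siNT1 in PC3 cells, from 0 to 5 for siCAG in HeyA8 cells, from 1 to 6 between the mock lines and from 0 to 3 for the siCAG difference. Without either siNT1 library siGGGGGC called 0 genes in PC3 cells, without either mock library 324, without the 24 h siGGGGGC library 3702 and without that of 48 h 617. Signs changed for CDK4 (-0.74 to 0.12) with siGGGGGC and for CCND2 (-0.43 to 0.38), CDKN1B (-0.023 to 0.16), RB1 (-0.88 to 0.15) and RBL2 (-0.17 to 0.033) with siCAG in PC3 cells. In HeyA8 cells they changed for CCND1 (-0.17 to 0.12), CCND2 (-1.58 to 1.79), CDK4 (-0.52 to 0.049), CDK6 (-0.41 to 0.27) and RBL2 (-0.78 to 0.13) with siGGGGGC and for CDK6 (-1.43 to 0.087) and RBL2 (-0.17 to 1.18) with siCAG. Between the mock lines they changed for CCND2 (-2.13 to 0.51) and CCND3 (-0.22 to 0.15).

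Few reads limited the values of CCND2, of E2F2 after siCAG in HeyA8 cells and of CDKN2A and CDKN2B in HeyA8 cells. Each treatment had 2 libraries in a line, with time between them.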
